A study of Mus musculus with 9 samples.

Results

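The 45 genes described here encode the machinery of mitosis: kinetochore and centromere proteins, the spindle checkpoint, mitotic kinases, spindle motors, condensin and the proteins of cytokinesis. They were chosen by symbol from textbook roles in cell division, and each symbol matched 1 of the 46517 gene rows in the deposited tables. RNA was sequenced from 4 cell populations sorted from the back skin of mice aged 30 days, a stage of full hair growth (anagen VI). Suprabasal cells of the hair bulb (suprabasal HB, 2 libraries), basal cells of the bulb (basal HB, 2 libraries) and the outer root sheath that lines the follicle between bulge and bulb (ORS, 2 libraries) stood beside hair follicle stem cells of the bulge (HFSC, 3 libraries). The strain label is Lhx2-GFP on CD1 for every library, the extraction text names K14-H2BGFP mice instead, and the sex label reads "Mixed". Sorting used GFP together with CD34, P-cadherin, Sca-1 and the integrins α6 and β1, per the labels. How many mice went into a library, and if replicates were different mice, is not given in the sources used here, nor are the gates. The p-values therefore measure the spread between these libraries, which may be technical.

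In mitosis the kinetochore, a protein complex built on the centromere, couples each chromosome to spindle microtubules, and the spindle checkpoint holds back anaphase until every kinetochore is attached. Condensin and topoisomerase compact and untangle chromosomes, kinesin motors build and move the spindle, and the contractile ring then divides the cell. Most of these genes are transcribed in a burst late in the cell cycle, and they are widely used as markers of dividing cells. In growing follicles the bulb and the lower ORS are known as sites of division, while bulge stem cells divide seldom by this stage. In a sorted bulk sample, fewer dividing cells and less RNA per dividing cell cannot be told apart.

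Total expected counts were 45438637 and 50752545 in suprabasal HB, 60990600 and 63511683 in basal HB, 64569201 and 88596741 in ORS, and 25098237 to 29902799 in the HFSC libraries, the shallowest. Levels are CPM, counts scaled by library size after TMM normalization, unless TPM is named, TPM being the deposited level per transcript length. Of 10 suprabasal bulb markers with values, among them Krt35 and Krt71, keratins of the hair shaft and inner root sheath, 8 had their highest mean in suprabasal HB, while Tchh peaked in basal HB and Gata3 in ORS. Of 8 basal bulb markers 2, Msx2 and Hoxc13, peaked in basal HB, whereas Lef1, Shh, Wnt10b and Bmp4 peaked in suprabasal HB and Krt5 and Itgb4 in HFSC. Of 6 ORS markers 0 peaked in ORS, with Krt5, Krt14, Krt17 and Krt6a highest in HFSC and Krt16 and Krt75 in basal HB. Of 8 bulge stem cell markers 5 (Cd34, Krt15, Lgr5, Sox9 and Tcf7l2) peaked in HFSC, while Lhx2 peaked in ORS and Nfatc1 and Foxc1 in suprabasal HB. The marker lists thus separated the bulb layers only in part, and the ORS list did not set the ORS apart. Melanocyte markers summed to 15410 and 15690 CPM in suprabasal HB, 905.3 and 1354 CPM in basal HB, 76.84 and 333.9 CPM in ORS, and 90.37 to 155.0 CPM in HFSC. Dermal fibroblast and papilla markers summed to 3873 and 1642 CPM in suprabasal HB, 2099 and 1740 CPM in basal HB, 1529 and 869.7 CPM in ORS, and 1566 to 2768 CPM in HFSC. Of these 10, 5 were higher and 1 lower in basal HB than in ORS, beside 15.8% and 14.7% of all genes. In ORS against HFSC 1 was higher and 5 lower, beside 18.1% and 23.8%. In suprabasal against basal HB 2 were higher and 4 lower, beside 13.1% and 14.8%. Endothelial and mural markers summed to 69.92 and 58.48 CPM in suprabasal HB, 744.0 and 875.8 CPM in basal HB, 303.8 and 258.4 CPM in ORS, and 929.9 to 1464 CPM in HFSC. Immune markers summed to 43.70 to 119.0 CPM. The part of these cells in the comparisons was not tested.

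All 45 genes passed the filter on low counts, and all were well expressed in every population. By the mean TPM over the 9 libraries, the extremes were Top2a, the topoisomerase that untangles sister chromatids, at 260.3 TPM, and Kif18a, a kinesin that dampens chromosome movement at the metaphase plate, at 12.4 TPM. Top2a averaged 247 ± 4.85 TPM in suprabasal HB, 268 ± 22.7 in basal HB, 437 ± 5.52 in ORS (SD, n = 2 each) and 146 ± 14.985 in HFSC (SD, n = 3). Kif18a averaged 11.2 ± 0.156, 11.7 ± 0.608 and 20.955 ± 3.53 TPM in suprabasal HB, basal HB and ORS (SD, n = 2 each) and 7.96 ± 0.918 TPM in HFSC (SD, n = 3). On this per-length scale Top2a, Cdk1, Ube2c, Smc4, Cenpa and Mki67 had the 6 highest means over populations, and the motors Kif4, Kif20b and Kif18a the 3 lowest.

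**Figure D1:**
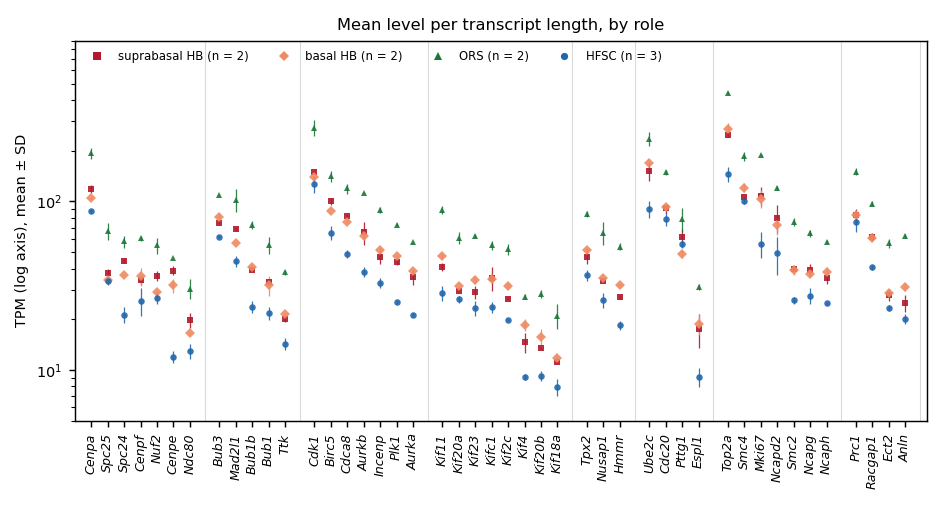
Mean TPM ± SD (log axis) of the 45 genes in suprabasal HB (squares), basal HB (diamonds), ORS (triangles) and HFSC (circles), ordered by level within 8 roles. ORS has the highest mean of every gene, and Top2a the highest level of all, at 437 TPM in ORS and 146 TPM in HFSC.

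The ORS mean exceeded the means of suprabasal HB, basal HB and HFSC for 45 of 45 genes. Summed over the 45 genes, the level was 4222 and 4520 CPM in suprabasal HB, 3786 and 3860 CPM in basal HB, 7093 and 6609 CPM in ORS, and 2816, 3397 and 3346 CPM in HFSC. For 35 genes the order of means, from high to low, was ORS, suprabasal HB, basal HB, HFSC. In 7 genes (Ndc80, Nuf2, Spc25, Cdk1, Kif20a, Pttg1 and Smc4) basal HB had the lowest mean and HFSC the next, and in 3 genes (Cenpf, Top2a and Anln) basal HB lay above suprabasal HB. These orders are by CPM, and neighbours in them often overlapped, as the tests below show. They also depended on the scale. By edgeR's log2 fold change suprabasal HB was above basal HB for 42 genes, and basal HB above HFSC for 38. On log2(TPM + 1) these numbers were 19 and 44. Replicate 1 was the higher library for 39 of 45 genes in ORS, but for 8 of 45 in suprabasal HB and 8 of 45 in basal HB. The share over all genes was not counted, so a shift particular to these genes cannot be told from a wider one. The median coefficient of variation over the genes was 6.81% in suprabasal HB, 4.93% in basal HB, 6.41% in ORS and 11.1% in HFSC.

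**Figure D2:**
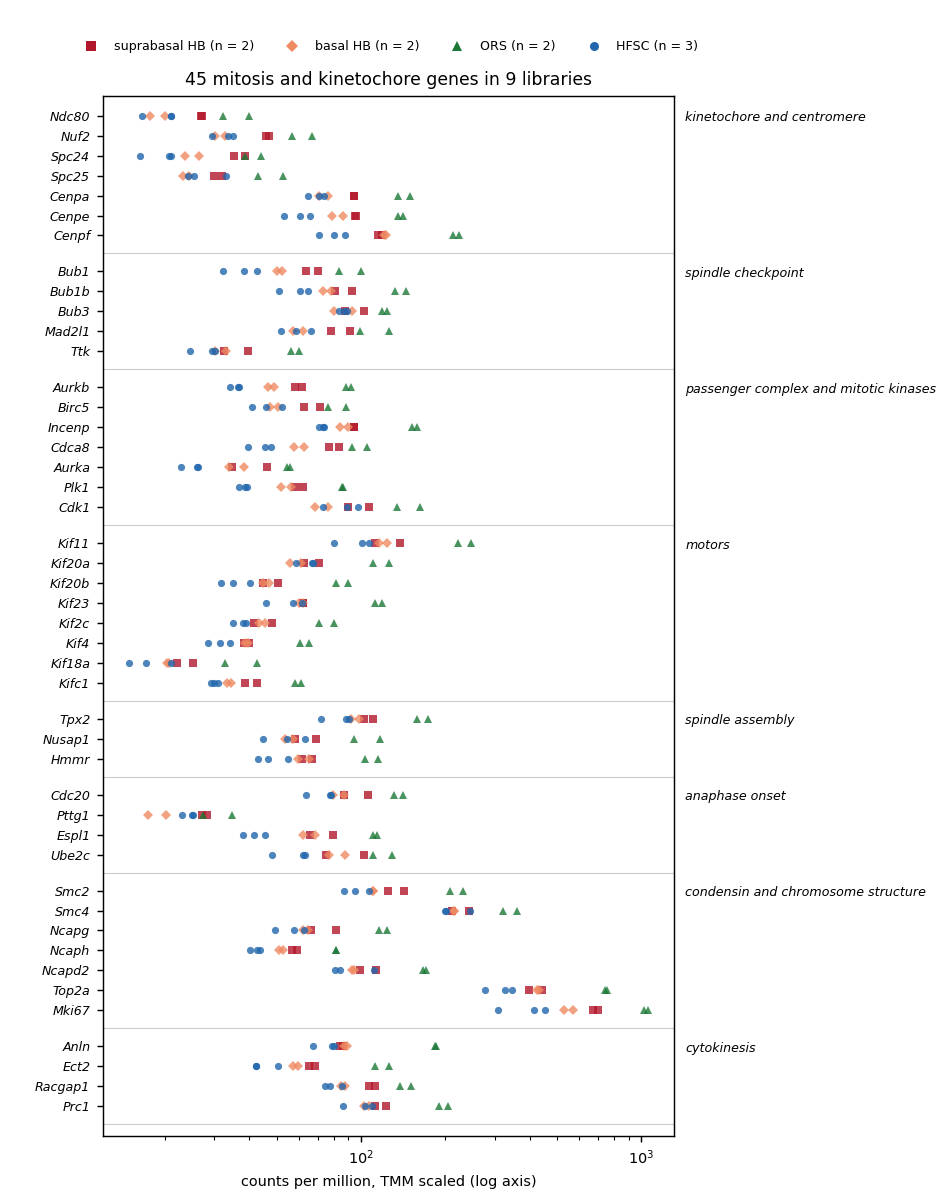
CPM (log axis) of each gene in each of the 9 libraries, grouped by role, with 2 points for suprabasal HB, basal HB and ORS and 3 for HFSC. ORS triangles lie to the right of HFSC circles and of basal HB diamonds for 45 of 45 genes, while suprabasal and basal HB overlap for 13.

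The 6 pairs of populations were compared in 1 edgeR quasi-likelihood fit over 20491 genes, with Benjamini-Hochberg adjusted p under 0.05 as the call. Pairs that share a population are not independent of each other. Between ORS and HFSC, 45 of the 45 genes were higher in ORS, with a median log2 fold change of 1.06, beside 18.1% of all genes tested and a median of -0.05 over them, and 0 were lower, beside 23.8%. Their libraries did not overlap for 45 of 45 genes, against 28.3% of all genes in that direction. Between basal HB and ORS, 45 of 45 were lower in basal HB (median -0.84), beside 14.7% of all genes (median -0.04), and 0 higher, beside 15.8%. Non-overlap in that direction held for 45 of 45, against 35.9% of all genes. Between suprabasal HB and ORS, 38 of 45 were lower in suprabasal HB (median -0.62), beside 15.1% of all genes (median -0.01). There 44 of 45 did not overlap, against 33.5% of all genes. The counts of 0 were also 0 at an unadjusted p under 0.05 and by DESeq2.

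Set against HFSC, the bulb populations differed less. In suprabasal HB 33 of 45 genes were higher than in HFSC (median 0.42), beside 25.2% of all genes (median 0.02), and 38 of 45 did not overlap, against 34.1% of all genes. In basal HB 19 of 45 were higher than in HFSC, beside 22.8% of all genes, and 1, Pttg1, was lower, beside 26.1%. The median there was 0.21, beside -0.00404 over all genes. Without the first or second basal HB library the 19 became 9 or 5, and without HFSC replicate 2 they became 30. On log2(TPM + 1), where the median of all genes moved up by 0.218, 37 of 45 were higher. The number of all genes called higher in this pair, 4681 in the main fit, also rose, to 7760 at the most over the alternatives. The HFSC libraries were also the shallowest, so population and library depth cannot be told apart in these pairs.

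Between the bulb layers, 11 of 45 genes were higher in suprabasal HB than in basal HB, beside 13.1% of all genes. The median was 0.20, beside 0 over all genes, and on TPM, where the median of all genes moved by -0.158, it was -0.0549. No gene was lower by edgeR's test, with 0 also at an unadjusted p under 0.05 and by DESeq2; limma on log2(TPM + 1) had 4 lower at an unadjusted p under 0.05. The groups did not overlap for 30 genes in that direction and for 2, Cenpf and Anln, in the other, against 33.9% and 34.6% of all genes. The 11 became 0 or 2 without the first or second basal HB library, 6 or 1 without the first or second suprabasal HB library, 5 without HFSC replicate 3 and 0 on TPM. The median was 0.148 or 0.249 without the first or second basal HB library and 0.292 or 0.0797 without the first or second suprabasal HB library, each of which left that population with 1 library. At an unadjusted p under 0.05, edgeR had 7 higher without basal HB replicate 1, and limma had 3 on log2(TPM + 1). All 9 melanocyte markers tested were also higher in suprabasal HB, and mitochondrial genes took 4.36% of its counts, against 2.60% and 2.89% in basal HB. Their part in the result was not tested.

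**Figure D3:**
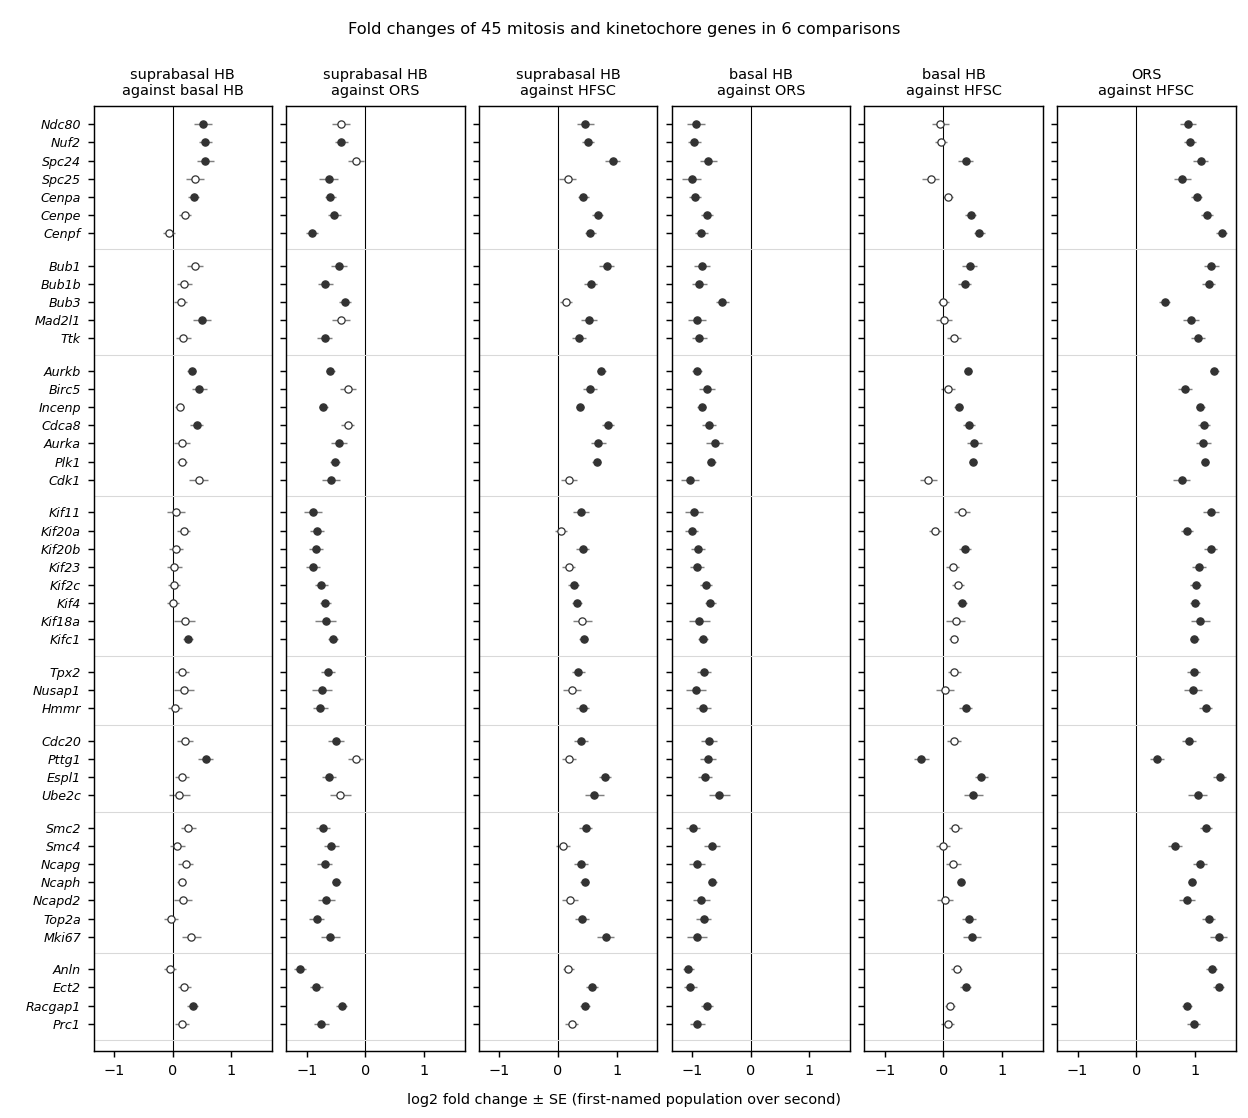
Log2 fold change ± SE of the 45 genes in 6 comparisons, first-named population over the second. Filled points passed adjusted p under 0.05 (edgeR): 11 genes for suprabasal against basal HB, where the median of 0.20 turns to -0.0549 on TPM, and 45 for ORS against HFSC.

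Promoter windows, from 250 bases before to 50 after the annotated start, were matched by symbol for 39 of the 45 genes in RefSeq, build GRCm38.p6. Late cell cycle genes are known in mammals for 2 elements there, the CHR (cell cycle genes homology region), bound by the MuvB complex with B-MYB and FOXM1, and the box bound by NF-Y. A gene was counted if any of its windows held the letters, so genes with more listed starts had more windows to match. The letters TTTGAA, the core of the CHR, were searched on both strands. They occurred in 30 of 39 genes (76.9%), beside 20.2% of 27025 genes with a window genome-wide and 11.1% of 27 DNA replication genes. CCAAT, the NF-Y box, occurred in 28 of 39 (71.8%), beside 41.1% genome-wide and 63% of the replication genes. Both occurred in 26 of 39 (66.7%), beside 7.97% and 7.41%. The E2F letters TTCCCGC or TTGGCGC occurred in 7 of 39 (17.9%), beside 7.79% genome-wide and 59.3% of the replication genes. In the first listed window of each gene, 29 of the 37 TTTGAA matches in the mitosis genes (78.4%) began within 50 bases of the start, beside 24.8% of matches genome-wide. A match is a description of letters, not a shown binding site.

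Promoters are shown for members with an extreme change in a comparison, 5′ to 3′ on the gene's strand, with TTTGAA and CCAAT, or their reverse complements TTCAAA and ATTGG, in capitals. By edgeR's log2 fold change, Cenpf, Anln and Espl1 had the largest change of the 45 in at least 1 pair, and Bub3 and Kif4 the smallest. Pttg1 had the smallest in ORS against HFSC and the largest in suprabasal against basal HB.
Cenpf, chr1:189688037-189688336, minus strand: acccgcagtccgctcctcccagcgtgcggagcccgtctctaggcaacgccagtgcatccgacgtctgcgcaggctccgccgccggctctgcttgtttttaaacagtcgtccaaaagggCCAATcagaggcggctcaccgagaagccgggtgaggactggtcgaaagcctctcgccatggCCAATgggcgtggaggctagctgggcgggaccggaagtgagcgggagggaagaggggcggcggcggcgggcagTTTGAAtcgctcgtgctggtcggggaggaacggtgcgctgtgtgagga
Anln, chr9:22389157-22389456, minus strand: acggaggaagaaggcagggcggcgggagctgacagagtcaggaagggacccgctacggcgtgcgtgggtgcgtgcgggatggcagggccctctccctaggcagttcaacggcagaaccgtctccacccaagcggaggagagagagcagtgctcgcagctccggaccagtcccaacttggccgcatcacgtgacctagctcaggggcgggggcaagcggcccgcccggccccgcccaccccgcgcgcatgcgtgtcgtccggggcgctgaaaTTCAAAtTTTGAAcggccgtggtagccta
Espl1, chr15:102296043-102296342, plus strand: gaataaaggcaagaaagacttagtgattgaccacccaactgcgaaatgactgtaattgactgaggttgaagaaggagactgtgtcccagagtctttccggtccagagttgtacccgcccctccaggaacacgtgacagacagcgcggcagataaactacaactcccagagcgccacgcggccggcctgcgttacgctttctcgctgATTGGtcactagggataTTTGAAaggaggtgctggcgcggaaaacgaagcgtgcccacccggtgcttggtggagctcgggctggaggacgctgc
Bub3, chr7:131560120-131560419, plus strand: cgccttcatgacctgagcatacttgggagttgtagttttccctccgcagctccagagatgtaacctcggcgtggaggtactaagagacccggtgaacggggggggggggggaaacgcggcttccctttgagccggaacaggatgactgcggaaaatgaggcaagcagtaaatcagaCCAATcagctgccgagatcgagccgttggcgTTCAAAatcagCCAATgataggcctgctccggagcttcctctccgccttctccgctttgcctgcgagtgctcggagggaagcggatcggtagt
Pttg1, chr11:43425932-43426231, minus strand: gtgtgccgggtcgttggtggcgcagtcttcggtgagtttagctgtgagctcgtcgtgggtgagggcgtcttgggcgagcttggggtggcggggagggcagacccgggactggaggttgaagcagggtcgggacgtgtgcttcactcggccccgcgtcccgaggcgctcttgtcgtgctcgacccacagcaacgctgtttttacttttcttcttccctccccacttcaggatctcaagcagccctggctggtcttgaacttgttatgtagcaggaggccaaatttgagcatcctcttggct
Kif4, chrX:100625815-100626114, plus strand: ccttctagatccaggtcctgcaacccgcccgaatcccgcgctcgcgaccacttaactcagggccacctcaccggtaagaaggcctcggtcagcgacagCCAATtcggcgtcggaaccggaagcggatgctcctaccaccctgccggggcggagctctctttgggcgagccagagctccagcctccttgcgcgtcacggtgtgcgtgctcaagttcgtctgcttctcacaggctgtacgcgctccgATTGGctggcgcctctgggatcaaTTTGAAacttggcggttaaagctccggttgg
Cenpf carries both motifs, Anln TTTGAA once on each strand with no CCAAT, and Espl1 1 of each a few bases apart. Bub3, shown for the first of its 2 listed windows, has TTTGAA between 2 CCAAT letters, Kif4 has both motifs, and Pttg1 has neither in this window. By the gene bounds of GENCODE M21, the Kif4 and Pttg1 windows lie inside the gene and do not cover its start there.

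**Figure D4:**
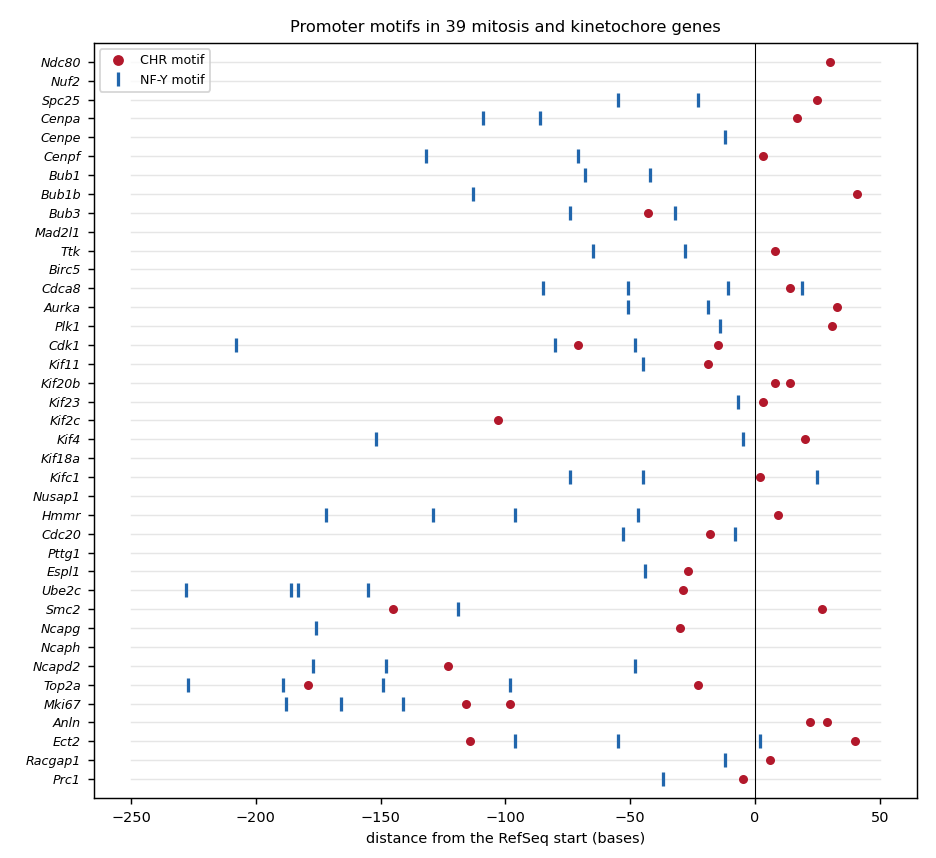
Positions of the CHR motif (circles) and the NF-Y motif (bars) in 39 promoter windows, in bases from the RefSeq start, 1 window per gene. The last NF-Y matches of Hmmr (5 in all), Ube2c (6) and Top2a (6) are not drawn. Most CHR circles lie near the start (29 of 37 within 50 bases), and 9 genes, among them Pttg1, have none.

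The 9 genes whose window lacked TTTGAA were Nuf2, Cenpe, Bub1, Mad2l1, Birc5, Kif18a, Nusap1, Pttg1 and Ncaph, a split made after their values were seen. In GENCODE M21 the starts of Pttg1 and Mad2l1 lie outside these windows. The bases around those starts were not searched in full. Between ORS and HFSC the median log2 fold change was 1.08 over the 30 genes with the letters and 0.95 over the 9 without. Between suprabasal and basal HB it was 0.17 with them, 5 of 30 called higher, and 0.38 without them, 4 of 9 called higher, beside 13.1% of all genes. On TPM 0 of the 45 genes were called in this pair by limma, with 3 higher and 4 lower at an unadjusted p under 0.05 on log2(TPM + 1), and edgeR and DESeq2 called 11 and 10. The ranges overlapped, at -0.06 to 0.52 with the letters and 0.16 to 0.56 without.

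Among the 7 kinetochore and centromere genes, Cenpa, the histone variant that marks the centromere, had the highest mean TPM and Ndc80, the microtubule-binding subunit of the NDC80 complex, the lowest. Cenpa stood at 94.2 and 94.3 CPM in suprabasal HB, 70.9 and 76.3 in basal HB, 149.5 and 136 in ORS, and 64.8, 74.1 and 70.6 in HFSC. Ndc80 stood at 27.1 and 26.8 CPM in suprabasal HB, 17.6 and 19.99 in basal HB, 39.8 and 32.1 in ORS, and 16.5, 21.04 and 21.01 in HFSC. For both genes suprabasal HB lay between ORS and the other populations, and basal HB overlapped HFSC. The 4 NDC80 subunits were lower in basal HB than in ORS by 0.93 (Ndc80), 0.97 (Nuf2), 0.72 (Spc24) and 1.01 (Spc25) on the log2 scale. Against basal HB, suprabasal HB was higher for Ndc80 (log2 0.52 ± 0.15 SE, adjusted p 0.034), Nuf2 (0.56 ± 0.11, adjusted p 0.0067) and Spc24 (0.56 ± 0.14, adjusted p 0.018), while Spc25 did not pass. Cenpa was higher too, by 0.36 ± 0.10 (adjusted p 0.025). In this pair 4 of 7 genes of the role were called, beside 13.1% of all genes. The role's median of 0.38 was the highest of the 8 roles by edgeR. On log2(TPM + 1) it was 0.24, and 11 called members became 0 over the 45.

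Spc24, which anchors the NDC80 complex to the inner kinetochore, had 35.3 and 38.5 CPM in suprabasal HB, 23.6 and 26.5 in basal HB, 44.2 and 38.6 in ORS, and 16.3, 20.6 and 21.05 in HFSC. The suprabasal libraries lay just under the lower ORS library and lay above every HFSC library. By edgeR suprabasal HB exceeded HFSC by 0.94 ± 0.13 on the log2 scale (1.91-fold, adjusted p 0.00034), the largest change in that pair. The edgeR difference from ORS, -0.16 ± 0.14, was the smallest in its pair and did not pass (adjusted p 0.42). Cenpf, a large kinetochore-associated protein, went the other way between the layers, with 115 and 118 CPM in suprabasal HB, 122 and 121 in basal HB, 224 and 213 in ORS, and 70.9, 80.2 and 87.7 in HFSC. By edgeR its 2.75-fold higher level in ORS than in HFSC (log2 1.46 ± 0.10, adjusted p 3.4e-05) was the largest change of any member in any pair. On TPM it averaged 60.3 in ORS and 25.8 in HFSC. The difference of Cenpf between the layers, -0.06 ± 0.11, did not pass (adjusted p 0.71). Cenpe, a kinesin at the kinetochore, was higher than in HFSC in suprabasal HB (0.68), in basal HB (0.46) and in ORS (1.21).

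By mean TPM the 5 spindle checkpoint genes ranged from Bub3, an adaptor that recruits checkpoint proteins, to Ttk, the kinase that starts the signal. Bub3 had 87.8 and 102 CPM in suprabasal HB, 80.5 and 92.7 in basal HB, 123 and 119 in ORS, and 83.4, 88.9 and 87.2 in HFSC. Ttk had 32.5 and 39.4 CPM in suprabasal HB, 30.3 and 33.1 in basal HB, 60.2 and 56.2 in ORS, and 24.5, 29.4 and 30.1 in HFSC. ORS stood apart for both genes, but for Bub3 the other 3 populations overlapped. Bub3 gave the smallest change of any member between basal HB and ORS (log2 -0.48 ± 0.11, adjusted p 0.0083) and between basal HB and HFSC (0.000887 ± 0.0968, adjusted p 1.0). Mad2l1, which inhibits anaphase at unattached kinetochores, had 78.0 and 91.1 CPM in suprabasal HB, 57.1 and 62.0 in basal HB, 126 and 99.4 in ORS, and 51.8, 66.6 and 58.6 in HFSC. It was the 1 checkpoint gene of 5 called higher in suprabasal than in basal HB (0.51 ± 0.15, adjusted p 0.036), beside 13.1% of all genes. Between suprabasal HB and ORS it did not pass (-0.41 ± 0.15, adjusted p 0.072). The checkpoint kinase genes Bub1 and Bub1b were higher than in HFSC in suprabasal HB (0.83 and 0.56) and in basal HB (0.45 and 0.36).

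Of the 7 passenger complex and kinase genes, Cdk1, the kinase that drives entry into mitosis, had the highest mean TPM, and Aurka, the kinase of centrosomes and spindle poles, the lowest. Cdk1 had 90.1 and 107 CPM in suprabasal HB, 68.6 and 76.3 in basal HB, 162 and 135 in ORS, and 73.0, 97.5 and 89.5 in HFSC. Aurka had 34.6 and 46.1 CPM in suprabasal HB, 33.8 and 38.3 in basal HB, 55.8 and 54.7 in ORS, and 22.8, 26.0 and 26.2 in HFSC. Both bulb layers lay above HFSC for Aurka but overlapped it for Cdk1. The difference of Cdk1 between the layers, 0.44 ± 0.16 on the log2 scale, did not pass (adjusted p 0.066). The chromosomal passenger complex corrects faulty attachments. By edgeR 3 of its 4 members were called higher in suprabasal than in basal HB, beside 13.1% of all genes. They were Aurkb, the kinase of the complex (0.32), Birc5, also called survivin (0.46), and Cdca8, or borealin (0.41). Incenp, the scaffold of the complex, had a log2 fold change of 0.12 and did not pass. On log2(TPM + 1) limma called 0 mitosis genes higher in this pair. Aurkb then overlapped, at 72.87 and 58.4 TPM in suprabasal HB and 65.12 and 59.99 TPM in basal HB. Birc5 and Cdca8 did not overlap on TPM. Incenp, Aurkb, Cdca8, Aurka and Plk1, a kinase of many mitotic steps, were higher than in HFSC in both bulb layers, by 0.26 to 0.53 in basal HB and by 0.38 to 0.85 in suprabasal HB.

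The 8 motors are kinesins that build the spindle and move chromosomes. Kif11, the kinesin that pushes spindle poles apart, had 112 and 138 CPM in suprabasal HB, 116 and 124 in basal HB, 246 and 221 in ORS, and 80.4, 107 and 101 in HFSC. Kif18a had 22.0 and 25.1 CPM in suprabasal HB, 20.3 and 20.6 in basal HB, 42.7 and 32.7 in ORS, and 14.9, 21.1 and 17.1 in HFSC. The bulb layers overlapped for Kif11, and ORS lay above every other library for both genes. Kif4, a chromosome-bound kinesin, had 38.4 and 39.9 CPM in suprabasal HB, 38.5 and 39.5 in basal HB, 65.2 and 60.4 in ORS, and 28.4, 34.2 and 31.5 in HFSC. Its log2 fold change of 0.00663 ± 0.0984 between suprabasal and basal HB (adjusted p 0.98) was the smallest of the 45 in that pair, and its sign turned under several other settings. Kif20a, which brings the passenger complex to the spindle midzone, had 62.4 and 70.7 CPM in suprabasal HB, 55.9 and 60.9 in basal HB, 125 and 110.2 in ORS, and 58.8, 67.4 and 67.0 in HFSC. Between suprabasal HB and HFSC it gave the smallest change, 0.05 ± 0.10 (adjusted p 0.73).

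Between suprabasal HB and ORS, 8 of 8 motors were lower, beside 15.1% of all genes, with a median log2 of -0.79. Kif23, a midzone kinesin, and Kif20b, a kinesin of late mitosis, fell by 0.89 and 0.85. Between suprabasal and basal HB the median of the motors was 0.06, the lowest of the 8 roles, and it was -0.0079 with upper-quartile scaling and -0.204 on log2(TPM + 1). There 13.1% of all genes were called higher. In that pair 1 motor passed, Kifc1, a pole-focusing kinesin whose counts may be shared with Kifc5b, with 0.26 ± 0.08 (adjusted p 0.046, called in 1 of 18 alternatives). Kif2c, a microtubule depolymerase, was higher in suprabasal HB than in HFSC by 0.27, and Kif20b and Kif4 were higher than in HFSC in basal HB by 0.37 and 0.31. Whether motors and kinetochore genes differ in the layer contrast was not tested.

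By mean TPM the 3 spindle assembly genes were led by Tpx2, which activates Aurora A and nucleates microtubules, with Hmmr, a spindle-pole protein, the lowest. Tpx2 had 103 and 111 CPM in suprabasal HB, 91.8 and 98.6 in basal HB, 173 and 158 in ORS, and 72.3, 88.3 and 90.7 in HFSC. Hmmr had 61.4 and 67.1 CPM in suprabasal HB, 59.7 and 65.3 in basal HB, 115 and 104 in ORS, and 43.0, 54.8 and 46.4 in HFSC. Both kept HFSC lowest and ORS highest, with the bulb layers overlapping for Hmmr. The group, with Nusap1, a microtubule-bundling protein, was lower in suprabasal HB than in ORS in 3 of 3 genes (median -0.73), beside 15.1% of all genes. In the layer contrast the group's log2 differences of 0.04 to 0.20 did not pass.

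Of the 4 genes of anaphase onset, Ube2c, the ubiquitin-conjugating enzyme of the anaphase-promoting complex, had the highest mean TPM, and Espl1, the protease separase that cuts cohesin, the lowest. Ube2c had 75.2 and 103 CPM in suprabasal HB, 76.7 and 87.7 in basal HB, 129 and 110.0 in ORS, and 48.3, 62.1 and 63.0 in HFSC. Espl1 had 79.8 and 65.7 CPM in suprabasal HB, 68.5 and 62.1 in basal HB, 110.3 and 114 in ORS, and 41.7, 37.9 and 45.6 in HFSC. For both genes the bulb layers overlapped each other and lay above HFSC. Espl1 was higher in basal HB than in HFSC by 0.65 ± 0.11 on the log2 scale (1.57-fold, adjusted p 0.0014), the largest change in that pair. The lower level of Ube2c in basal HB than in ORS, -0.54 ± 0.18, was at the edge of the call (called in 8 of 18 alternatives).

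Pttg1, or securin, the inhibitor of separase, behaved least like the rest. It had 28.2 and 27.1 CPM in suprabasal HB, 17.3 and 20.1 in basal HB, 34.8 and 27.3 in ORS, and 23.0, 25.2 and 24.9 in HFSC. Basal HB was below every other library, and suprabasal HB overlapped ORS. Its change between ORS and HFSC was the smallest of the 45 (log2 0.35 ± 0.12, adjusted p 0.047, called in 12 of 18 alternatives). It was the member that fell in basal HB against HFSC (-0.38 ± 0.13, adjusted p 0.033, called in 6 of 18 alternatives). It also gave the largest change between suprabasal and basal HB (0.56 ± 0.14, adjusted p 0.015, called in 13 of 18 alternatives). Cdc20, the activator of the anaphase-promoting complex, did not pass between the layers (0.21) and was lower in suprabasal HB than in ORS by 0.50.

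Among the 7 condensin and chromosome structure genes, Top2a had 399 and 441 CPM in suprabasal HB, 433 and 424 in basal HB, 752 and 741 in ORS, and 276, 326 and 346 in HFSC. Ncaph, the condensin subunit that closes the ring, was lowest per length, with 56.6 and 59.0 CPM in suprabasal HB, 51.1 and 52.6 in basal HB, 81.8 and 81.7 in ORS, and 40.3, 42.7 and 43.7 in HFSC. ORS stood clear of the other libraries for both, and the layers overlapped for Top2a. Mki67, the proliferation marker that coats mitotic chromosomes, had 702 and 671 CPM in suprabasal HB, 569 and 529 in basal HB, 1056 and 1018 in ORS, and 308, 415 and 451 in HFSC. Its libraries did not overlap between the layers, yet the log2 difference of 0.32 ± 0.17 did not pass (adjusted p 0.20). The 7 genes had log2 differences of -0.03 to 0.32 between the layers. Against ORS 7 of 7 were lower in suprabasal HB (median -0.67), beside 15.1% of all genes. Smc4, a condensin ATPase, differed little from HFSC, by 0.08 ± 0.12 in suprabasal HB (adjusted p 0.62) and -0.00404 ± 0.121 in basal HB (adjusted p 0.98). Its partner Smc2 was higher in suprabasal HB than in HFSC by 0.47 (adjusted p 0.0062).

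By mean TPM the 4 cytokinesis genes ran from Prc1, which bundles midzone microtubules, to Anln, or anillin, a scaffold of the contractile ring. Prc1 had 112 and 122 CPM in suprabasal HB, 103 and 107 in basal HB, 205 and 189 in ORS, and 86.5, 109 and 103 in HFSC. Anln had 86.3 and 84.1 CPM in suprabasal HB, 87.2 and 89.0 in basal HB, 183 and 185 in ORS, and 67.6, 78.7 and 79.9 in HFSC. The ORS libraries agreed closely for Anln and lay far above the other 7. Anln gave the largest change of the 45 both between basal HB and ORS (log2 -1.06 ± 0.10, 2.09-fold lower, adjusted p 0.00017) and between suprabasal HB and ORS (-1.11 ± 0.10, 2.16-fold lower, adjusted p 6.9e-05). Ect2, the exchange factor that activates RhoA at the division plane, had 65.1 and 68.5 CPM in suprabasal HB, 57.0 and 59.6 in basal HB, 126 and 112 in ORS, and 42.2, 50.5 and 42.1 in HFSC. Racgap1, a subunit of centralspindlin, which recruits Ect2, was the 1 cytokinesis gene of 4 called higher in suprabasal than in basal HB (0.34 ± 0.10, adjusted p 0.029), beside 13.1% of all genes. On TPM its layers overlapped, at 64.21 and 59.29 TPM in suprabasal HB and 60.61 and 60.34 TPM in basal HB.

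Between suprabasal HB and ORS, the 7 members that did not pass were Ndc80, Spc24, Mad2l1, Birc5, Cdca8, Pttg1 and Ube2c, with log2 differences from -0.43 to -0.16. Between suprabasal HB and HFSC the 12 that did not pass were Spc25, Bub3, Cdk1, Kif20a, Kif23, Kif18a, Nusap1, Pttg1, Smc4, Ncapd2, Anln and Prc1, with differences from 0.05 to 0.42.

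DNA replication genes, a list of 32 that act in the preceding S phase, did not keep step with the mitosis genes in every pair. In suprabasal against basal HB 30 of 32 were higher, beside 13.1% of all genes, with a median log2 of 0.65, and on log2(TPM + 1) 13 of 32 were higher by limma, with a median of 0.44. The 45 mitosis genes had 11 higher and a median of 0.20 in that pair, or -0.0549 on TPM. The mean log2(CPM + 1) of the replication list minus that of the mitosis genes was 0.063 and -0.068 in suprabasal HB, -0.391 and -0.417 in basal HB, -0.282 and -0.227 in ORS, and -0.048, -0.035 and -0.041 in HFSC. Both basal HB libraries thus had the lowest replication level relative to mitosis, and both suprabasal HB libraries stood within 0.07 of equality. Against HFSC, basal HB had 8 of 32 replication genes lower (Mcm2, Mcm4, Mcm6, Orc6, Pola1, Rfc3, Lig1 and Chaf1b), a share near the 26.1% of all genes called lower in that pair, and a median of -0.12, which was 0.0178 with upper-quartile scaling and 0.155 on log2(TPM + 1); 2 to 8 were lower over the 18 alternatives. Since the list was chosen with these data known, the difference between the lists was not tested.

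**Figure D5:**
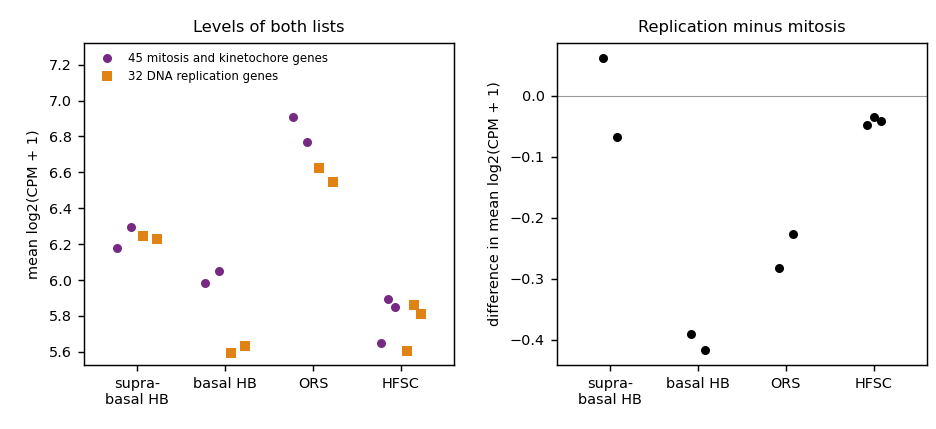
Left, mean log2(CPM + 1) per library of the 45 mitosis genes (circles) and of 32 DNA replication genes (squares). Right, their difference, near 0 in suprabasal HB and HFSC and lowest in basal HB (-0.391 and -0.417).

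Other genes of the same machinery were taken from 7 further lists of mitotic genes. Beside their counts, 18.1% of all genes were higher and 23.8% lower in ORS against HFSC, 15.8% higher and 14.7% lower in basal HB against ORS, and 13.1% higher in suprabasal against basal HB. Of 30 other kinetochore and centromere genes tested, 25 were higher in ORS than in HFSC, 25 were lower in basal HB than in ORS and 11 were higher in suprabasal than in basal HB, with a median of 0.43 in the last pair (0.156 on log2(TPM + 1)). Cenpt, an inner kinetochore gene, was called against the rest in basal HB against ORS (0.56), and Mad1l1, which anchors MAD2 at kinetochores, was lower than in HFSC in both bulb layers (-0.32 in suprabasal HB and -0.38 in basal HB). Of 22 other spindle and cytokinesis genes, 19 were higher and 2, Rhoa and Sept9, lower in ORS against HFSC. Sept9, a septin of the division furrow and of the cytoskeleton between divisions, was higher than in ORS in suprabasal HB (1.84) and basal HB (1.56). Of 9 cyclin and CDK1-switch genes, 9 were higher in ORS than in HFSC and 9 lower in basal HB than in ORS. Of 11 cohesin genes tested, 10 were higher in ORS than in HFSC, and 8 were lower in basal HB than in ORS and 1, Stag2, higher. The 3 condensin II genes were lower in basal HB than in ORS in 3 of 3. Against HFSC, 6 of the 30 other kinetochore genes were higher in basal HB and 4 (Zwint, Cenpk, Ska2 and Mad1l1) lower, at or under the 22.8% and 26.1% of all genes. Smc1a, a core cohesin ATPase, was lower than in HFSC in both bulb layers, and Sept7, another septin, in suprabasal HB.

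The anaphase-promoting complex, whose core subunits are present in non-dividing cells too, was counted apart. Of its 14 genes, 5 were higher and 3, Anapc2, Anapc10 and Anapc13, lower in ORS than in HFSC, beside 18.1% and 23.8% of all genes, with a median of 0.14. Between suprabasal HB and ORS 1 was higher, Anapc5, and 1 lower, Cdc23, under the 14.3% and 15.1% of all genes. Cdc23 shares 1271 exonic bases with Kif20a on the opposite strand.

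The regulators of late cell cycle transcription were taken as a list of 18. Foxm1, the forkhead factor of mitotic genes, had 94.1 and 83.1 CPM in suprabasal HB, 75.1 and 72.8 in basal HB, 129 and 125 in ORS, and 61.2, 56.5 and 62.8 in HFSC. Mybl2, encoding B-MYB, had 49.3 and 45.1 CPM in suprabasal HB, 30.3 and 30.9 in basal HB, 61.0 and 58.7 in ORS, and 27.1, 31.2 and 30.9 in HFSC. Foxm1 was ordered like most members, whereas Mybl2 in basal HB overlapped HFSC. In suprabasal against basal HB Mybl2 was higher by 0.62 ± 0.09 (adjusted p 0.0018), and Foxm1 did not pass (0.26 ± 0.09, adjusted p 0.069). Ccnb1 and Ccna2, the cyclins that activate CDK1, were higher in ORS than in HFSC by 1.31 and 1.26, and did not pass between the layers (0.25 and 0.32). Of the 18, 12 were higher in ORS than in HFSC, beside 18.1% of all genes, and 15 were lower in basal HB than in ORS, beside 14.7%. In suprabasal HB against ORS 7 were lower, beside 15.1% of all genes, Foxm1 and Mybl2 among them, and 1, the repressor E2f8, was higher (0.26 ± 0.08, adjusted p 0.033). Against HFSC, Nfyb, which encodes an NF-Y subunit, and Tfdp2, a partner of E2F proteins, were lower in both bulb layers, while 11 regulators were higher in suprabasal HB, beside 25.2% of all genes, and 8 in basal HB, beside 22.8%.

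Some counts may be shared with other loci. Of the 25-base words in the transcripts of Kifc1, 64.1% also occur in other genes, and the share was 33.4% for Cdc20, 20.6% for Plk1, 11.6% for Ndc80 and 10.1% for Ube2c. Exons of Cdca8, Plk1, Kif20a, Kif4, Kif18a, Nusap1, Cdc20, Ube2c, Ncapg and Prc1 overlap a gene on the opposite strand, by 11 to 1271 bases. Whether counting used strand is not given, so reads of those stretches cannot be assigned with certainty.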

How the data were processed

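RNA sequencing of 9 libraries from 4 populations was analysed. Per the submitters' processing notes, reads were handled with Bowtie2 2.2.9 and RSEM 1.2.30 on mm10; parameters and counting strand are not given in the sources used here. The authors deposited expected counts, estimated reads per gene not scaled for depth, and TPM, scaled per transcript length and to the same sum in each library. A series-wide table with 9 columns of per-sample values was not used.

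Expected counts were rounded and filtered with filterByExpr, leaving 20491 genes, scaled by TMM and fitted with edgeR 4.0.16 (R 4.3.3) by quasi-likelihood, with 1 mean per population (4) and 5 residual df. P-values were 2-sided F-tests, adjusted by Benjamini-Hochberg over all genes tested. Alternatives used limma 3.58.1 on log2(TPM + pseudocount), with pseudocounts 1 and 0.1, and DESeq2 1.42.0. The fit was tested on simulated data. The 45 genes, the other lists and the comparisons were chosen with earlier results of these data known. Every member may be named; per-library values are given for the highest and lowest mean TPM in each role and the largest and smallest change in each comparison, and a few more named after their values were seen (Mad2l1, Mki67, Ect2). Replicates were no duplicates: their counts differed by far more than sampling noise. Exon overlaps and shared transcript words come from GENCODE M21. The 92 ERCC rows were at 0 in every library and were left out. Depth limits precision most in HFSC.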

Additional observations from a re-analysis of the deposited data

How the results depend on the processing

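Each comparison was repeated under 18 alternatives. The number of the 45 genes called stayed at 44 to 45 higher for ORS against HFSC, 41 to 45 lower for basal HB against ORS, 26 to 41 lower for suprabasal HB against ORS and 26 to 39 higher for suprabasal HB against HFSC. For basal HB against HFSC, 19 higher became 37 on log2(TPM + 1) and 31 on log2(TPM + 0.1), and leaving out 1 library gave 5 to 30. The 1 lower gene there, Pttg1, became 0 with upper-quartile scaling, DESeq2-style size factors, no low-count filter, the replicate block and both TPM settings, and 0 to 1 without 1 library. For suprabasal against basal HB, 11 higher became 0 on both TPM settings and 0 to 10 without 1 library. Outside HFSC, leaving out a library left a population with a single sample, assumed to vary like the other groups. The cause of these changes was not tested.

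The difference of replicate 1 from replicate 2, over all genes, correlated weakly between populations, from -0.0686 to 0.121, the highest between the bulb layers. This cannot decide if equal replicate numbers share mice or a sort, which is not given in the sources used here. With the replicate block the counts were 44 (ORS against HFSC), 44 (basal HB against ORS), 14 higher and 0 lower (basal HB against HFSC), 5 (suprabasal against basal HB), 37 (suprabasal HB against ORS) and 32 (suprabasal HB against HFSC).

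Single genes reversed near 0. Kif4 in suprabasal against basal HB was -0.059 with upper-quartile scaling, -0.0321 with DESeq2-style size factors, -0.00857 with no filter, -0.0219 with a stricter one, -0.0322 by DESeq2, -0.323 and -0.341 on TPM, and -0.0507 at the lowest and 0.0372 at the highest without 1 library. Bub3 in basal HB against HFSC ranged from -0.102 (without basal HB replicate 2) to 0.153 without 1 library, and Pttg1 in suprabasal HB against ORS from -0.332 to 0.016 (without ORS replicate 1). Counts that moved by over 1.5 times elsewhere reached, over all genes, 5928 higher and 2519 lower in ORS against HFSC (3703 and 4873 in the main analysis), 3083 to 7760 higher and 2793 lower in basal HB against HFSC (4681 and 5345), 2095 higher and 1330 lower in basal HB against ORS (3241 and 3004), 779 higher and 1795 lower in suprabasal against basal HB (2679 and 3042), and 1597 higher and 2035 lower in suprabasal HB against ORS (2927 and 3094). For the replication list they reached 9 higher in suprabasal against basal HB (30), 4 lower in suprabasal HB against ORS (18) and 2 lower in basal HB against HFSC (8).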
